A study of Homo sapiens with 4 samples.

Results

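The 10 genes described here encode the mammalian target of rapamycin (mTOR) kinase, its binding partners and its best known effectors in translation: MTOR, RPTOR, RICTOR, MLST8, AKT1S1, DEPTOR, EIF4EBP1, EIF4EBP2, RPS6KB1 and RPS6KB2. They were chosen by name for their roles, and each matched 1 of the 28198 genes in the deposited table of FPKM (fragments per kilobase of transcript scaled to the mapped fragments of the library). Of the 10, 9 averaged 1 FPKM or more across the libraries and entered the comparisons, which covered 10905 genes. DEPTOR, with a mean of 0.521 FPKM, did not. The libraries came from MDA-MB-231, a human line of triple-negative breast cancer, in which METTL3, the enzyme that writes N6-methyladenosine on mRNA, had been depleted by shRNA. Both lines then received METTL3 from a lentivirus, either the wild-type form (WT cells) or the K177Q form (K177Q cells), in which glutamine replaces a lysine to mimic its acetylation. From each line, cells were treated with cycloheximide, which holds ribosomes on mRNA. What was collected from sucrose gradients was pooled into a sub-polysome fraction (ribosomal subunits and single ribosomes) and a polysome fraction (mRNA carrying several ribosomes). Each of the 4 combinations of line and fraction is represented by 1 library, labelled replicate 2 by the submitters, so no difference below has a replicate check, and no p-value is given.

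mTOR works in 2 complexes. In mTORC1, RPTOR (raptor) brings substrates to the kinase, AKT1S1 (PRAS40) binds and restrains it, and the complex responds to amino acids and growth factors. In mTORC2, RICTOR takes the place of raptor and the complex phosphorylates AKT. MLST8 binds the kinase in both, and DEPTOR inhibits both. The 4E-BPs, encoded by EIF4EBP1, EIF4EBP2 and a further gene outside the 10, hold the cap-binding protein eIF4E away from eIF4G until mTORC1 phosphorylates them, and the S6 kinases, encoded by RPS6KB1 and RPS6KB2, phosphorylate ribosomal protein S6 and other translation factors when mTORC1 has activated them. The polysome to sub-polysome ratio of an mRNA is used as a measure of how well it is translated, and its ratio between K177Q and WT cells is called the translation efficiency ratio below.

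mRNAs whose translation depends most on mTORC1 begin with a C and a run of pyrimidines, so the bases around the annotated transcription start were read for the members. The windows hold 15 bases on each side of the RefSeq start (GRCh38.p14), are written 5′ to 3′ on the gene's own strand, and have in capitals every run of a C followed by 4 or more C or T. Of the members printed, MTOR held 2 such runs and EIF4EBP2 held 3, while RPTOR, RICTOR, RPS6KB1 and RPS6KB2 held none. Over all windows of this length, 13700 of 35116 (39.0%) held at least 1. No run in these windows covered the RefSeq start base itself, which a run covered in 7.87% of all windows. The longest run, 13 bases in MTOR, ended on the base before the RefSeq start, and in both genes a run of 5 began on the base after it. GENCODE, the source of the positions below, was read for the outer 5′ edge of each gene over all its transcripts. The start of single GENCODE transcripts was not read. Among the members printed, only EIF4EBP2 has its RefSeq start at that edge. The GENCODE gene edge of MTOR, 11262556, is a C inside the run of 13 bases. Which MTOR transcript begins there was not read. The GENCODE gene edges of RPTOR, RPS6KB1 and RPS6KB2 lie outside the printed windows, and that of RICTOR lies in no run. The match describes the letters in the window and is not a mapped start site.
MTOR (chr1:11262537-11262566, minus strand): aaCCCTCCTTCCCTCgCTCCCggcttagag
RPTOR (chr17:80544823-80544852, plus strand): cgcggtgcattctgggtcctggcaatatgg
RICTOR (chr5:39074385-39074414, minus strand): ggcgaggtttccggtgttgtgactgaaacc
EIF4EBP2 (chr10:70404130-70404159, plus strand): CTCCCgCCTTCgcccgCTTCCggtcgtcgt
RPS6KB1 (chr17:59893106-59893135, plus strand): ggcctaggcgcagacgcactgagcctaagc
RPS6KB2 (chr11:67428479-67428508, plus strand): aggtccgggactgtcagtcagtgcgcggcc

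The 4 libraries held between 15773 and 16193 genes above 0, and about 25.8 to 26.8 M fragments each, as estimated from the smallest steps in the FPKM values. All 8 listed genes of the MDA-MB-231 state were above 1 FPKM, whereas ESR1, PGR and FOXA1, which mark luminal breast cells, were at or near 0. Of the 8 luminal genes listed, 4 averaged 1 FPKM or more, led by KRT18 at 316.1 to 719.3 FPKM, and PTPRC, PECAM1 and COL1A1, for other cell types, summed to 2.11 to 3.36 FPKM. METTL3 was listed at 9.39 FPKM in the WT sub-polysome library, 38.7 in WT polysome, 5.07 in K177Q sub-polysome and 29.5 in K177Q polysome, values in which the introduced and the endogenous mRNA cannot be told apart. Ribosomal protein genes took 26.1% of FPKM in the WT sub-polysome library and 26.4% in the K177Q one, but 17.6% in the WT polysome library and 14.3% in the K177Q one. Where another scaling of the libraries turns a direction, its value is given beside the result. No library of total RNA was analysed here, so within 1 fraction fewer copies per cell and a shift between fractions cannot be told apart.

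The 10 mRNAs spanned a wide range of levels, and their order was nearly the same in every library. EIF4EBP1 was the most abundant, followed by AKT1S1, MLST8 and RPS6KB2 in all 4 libraries, and DEPTOR was the lowest in all 4. The subunits that define the complexes were scarce beside the small partners. The MLST8 to MTOR ratio of FPKM, which is scaled to transcript length, was 38.8 in WT sub-polysome, 15.4 in WT polysome, 47.4 in K177Q sub-polysome and 9.95 in K177Q polysome.

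**Figure D1:**
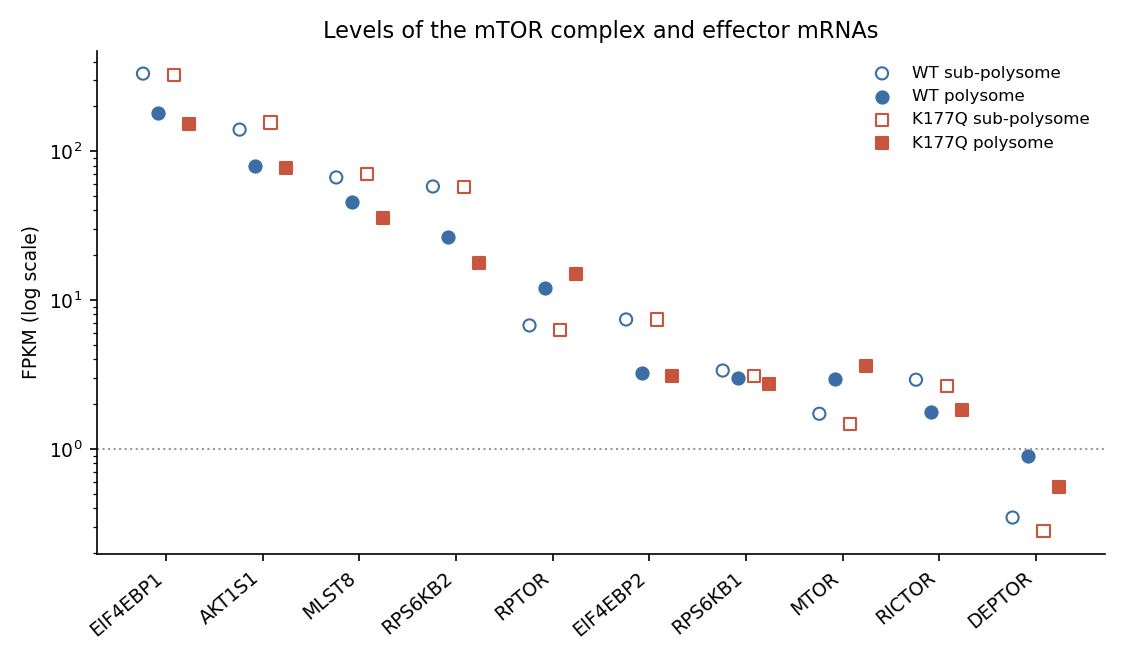
FPKM (log axis) of each of the 10 mRNAs in the 4 libraries, ordered by mean level, with 1 point per library and the dotted line at the 1 FPKM minimum. EIF4EBP1 is the highest and DEPTOR the lowest in every library, and open points (sub-polysome) lie above filled points (polysome) for every gene except RPTOR, MTOR and DEPTOR.

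MTOR, the kinase itself, lies on chromosome 1 at 11106535 to 11262556 (minus strand, GRCh38, GENCODE 44) and its mRNA has 58 exons with 7650 coding bases. Its level was 1.72 FPKM in WT sub-polysome, 2.95 in WT polysome, 1.48 in K177Q sub-polysome and 3.59 in K177Q polysome. Both polysome libraries were above both sub-polysome libraries, and the K177Q polysome library was the highest. RPTOR, the scaffold of mTORC1, lies on chromosome 17 at 80544819 to 80966371 with 4008 coding bases in 34 exons, and had 6.75, 12.02, 6.28 and 14.96 FPKM in the same order of libraries. It followed the same pattern as the kinase: the RPTOR to MTOR ratio of FPKM stayed between 3.92 and 4.26 across the 4 libraries.

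RICTOR, the scaffold of mTORC2, lies on chromosome 5 at 38937920 to 39074402 with 5127 coding bases in 38 exons. It had 2.91 FPKM in WT sub-polysome, 1.78 in WT polysome, 2.65 in K177Q sub-polysome and 1.83 in K177Q polysome, so that here the sub-polysome libraries were the higher ones. The proportion of the 2 scaffolds therefore differed between fractions. RPTOR exceeded RICTOR by 2.32-fold in WT sub-polysome and 2.37-fold in K177Q sub-polysome, but by 6.76-fold in WT polysome and 8.16-fold in K177Q polysome. MLST8, the small subunit shared by both complexes (chromosome 16, 2204248 to 2209453, 981 coding bases in 9 exons), had 66.7, 45.5, 69.8 and 35.7 FPKM in WT sub-polysome, WT polysome, K177Q sub-polysome and K177Q polysome, with both polysome libraries below both sub-polysome libraries.

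The 2 inhibitory partners stood at opposite ends of the range. AKT1S1, which encodes PRAS40 (chromosome 19, 49869033 to 49878459, 771 coding bases in 5 exons), had 139.8 FPKM in WT sub-polysome, 79.4 in WT polysome, 155.9 in K177Q sub-polysome and 77.0 in K177Q polysome, again lower in both polysome libraries. DEPTOR (chromosome 8, 119873717 to 120050918, 9 exons) was listed at 0.345, 0.90, 0.281 and 0.558 FPKM in that order, which corresponds to about 24, 62, 19 and 37 fragments. Both polysome values of DEPTOR were above both sub-polysome values, at a depth where counting error on the log2 polysome to sub-polysome ratio (1.17 in WT, 0.79 in K177Q) was 0.35 and 0.41. AKT1S1 exceeded DEPTOR by between 88.3-fold (WT polysome) and 555-fold (K177Q sub-polysome).

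Within each effector pair, 1 member was far more abundant than the other. EIF4EBP1, encoding 4E-BP1 (chromosome 8, 38030534 to 38060365, 357 coding bases in 3 exons), had 332.4 FPKM in WT sub-polysome, 181.5 in WT polysome, 325.6 in K177Q sub-polysome and 152.7 in K177Q polysome. EIF4EBP2, encoding 4E-BP2 (chromosome 10, 70404145 to 70428618, 363 coding bases in 3 exons), had 7.40, 3.24, 7.40 and 3.09 FPKM. The EIF4EBP1 to EIF4EBP2 ratio was 44.9 in WT sub-polysome, 56.01 in WT polysome, 43.98 in K177Q sub-polysome and 49.4 in K177Q polysome. Both mRNAs were lower in the polysome libraries, EIF4EBP2 by somewhat more. Their coding regions are nearly equal in length, but the annotated 3′ untranslated region is 430 bases in EIF4EBP1 and 6871 bases in EIF4EBP2.

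The proportion of the S6 kinase genes differed more between fractions. RPS6KB1, encoding S6K1 (chromosome 17, 59893046 to 59950574, 1578 coding bases in 15 exons), had 3.36 FPKM in WT sub-polysome, 2.97 in WT polysome, 3.08 in K177Q sub-polysome and 2.72 in K177Q polysome, a spread of 1.23-fold from highest to lowest. RPS6KB2, encoding S6K2 (chromosome 11, 67428460 to 67435401, 1449 coding bases in 15 exons), had 57.9, 26.3, 57.4 and 17.7 FPKM. The 2 sub-polysome libraries were nearly equal and the K177Q polysome library was the lowest. RPS6KB2 exceeded RPS6KB1 by 17.3-fold in WT sub-polysome and 18.6-fold in K177Q sub-polysome, but by 8.86-fold in WT polysome and 6.50-fold in K177Q polysome.

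In GENCODE 44, 8 of the 10 members share exon bases with another gene, all but EIF4EBP1 and EIF4EBP2, and some of their reads could belong to it, since the annotation and strand setting of the counting are not given in the sources used here. RPS6KB2 shares 470 bases with RPS6KB2-AS1 and DEPTOR 252 with DEPTOR-AS1, both on the other strand, RPS6KB1 shares 149 on its own strand with a gene that has no symbol, and RPTOR shares 57 to 133 with each of 4 genes without a symbol, 1 of them on its own strand. Neighbours with a row in the FPKM table were found for 4 members. AKT1S1 shares 151 exon bases with TBC1D17 on the other strand, RICTOR shares 229 with OSMR on the other strand (16.1 to 23.5 FPKM, above RICTOR itself), and MLST8 shares 201 with BRICD5 on the other (0.330 to 2.48 FPKM). The 2 genes that overlap MTOR on the other strand, ANGPTL7 and MTOR-AS1, were listed at 0 in all 4 libraries.

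The first comparison the design allows is between fractions of the same cells. In WT cells, MTOR and RPTOR were more abundant in polysomes, by 1.68-fold and 1.77-fold, and the other 7 members that passed the filter were more abundant in the sub-polysome fraction. On the log2 scale (FPKM plus 0.1) the ratio was 0.74 for MTOR and 0.82 for RPTOR, higher than 78.2% and 81.6% of genes. Of the 7, 5 were lower in polysomes by at least 1.5-fold: RICTOR (1.604-fold), AKT1S1 (1.76-fold), EIF4EBP1 (1.83-fold), RPS6KB2 (2.20-fold) and EIF4EBP2 (2.24-fold). MLST8 was lower by 1.46-fold, and RPS6KB1 had a log2 ratio of -0.17. Over all genes tested, 28.1% were higher in WT polysomes by 1.5-fold or more and 19.1% lower by as much, against 2 and 5 of 9 members. Among the 8615 genes in the members' own range of mean FPKM (2.29 to 248.07), these shares were 29.7% and 17.3%. The median log2 ratio was -0.68 for the members and 0.14 for all genes, of which 57.3% were above 0.

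In K177Q cells the same 2 mRNAs were on the polysome side and the same 7 on the other. MTOR was 2.34-fold and RPTOR 2.36-fold higher in polysomes, log2 ratios of 1.23 and 1.24 that exceeded those of 91.6% and 91.8% of genes. RPS6KB2 was 3.23-fold lower in polysomes (log2 ratio -1.69, with 5.4% of genes below it), EIF4EBP2 2.35-fold, EIF4EBP1 2.13-fold, AKT1S1 2.02-fold and MLST8 1.95-fold lower. RICTOR, at 1.42-fold lower, did not reach 1.5-fold here, and RPS6KB1 had the same log2 ratio as in WT cells, -0.17. The background in K177Q cells was 30.2% of genes past 1.5-fold on the polysome side and 21.3% on the other, and the members again had 2 and 5 of 9. Their median log2 ratio was -0.97, against 0.16 for all genes, of which 57.2% were above 0. Under 3 other scalings these directions held for 8 of the 9 members. RPS6KB1 in K177Q cells moved to 0.25 when the libraries were rescaled to equal totals of FPKM (TPM) and to 0.03 when ribosomal protein genes were left out of those totals.

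**Figure D2:**
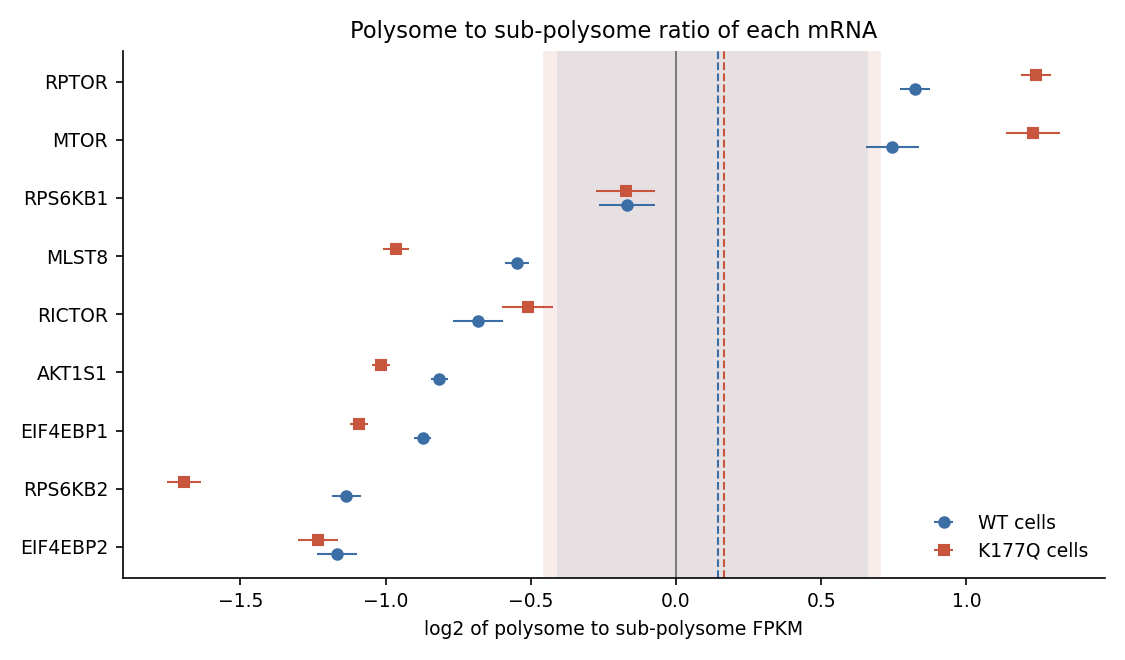
log2 of polysome to sub-polysome FPKM for the 9 members that passed the filter, in WT (circles) and K177Q cells (squares), with bars of 1 counting SE on each side, dashed lines at the medians of all genes and shading over their middle quartiles. MTOR and RPTOR lie to the right of 0 and farther right in K177Q cells, whereas MLST8, AKT1S1, EIF4EBP1 and RPS6KB2 lie to the left and farther left in K177Q cells.

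The 2nd comparison is between K177Q and WT cells within a fraction. In the polysome libraries MTOR had a log2 K177Q to WT ratio of 0.28 and RPTOR 0.31, which placed them above 88.1% and 90.5% of genes. RPS6KB2 had -0.57 (1.49-fold lower, counting SE 0.066), with 3.3% of genes below it, followed by MLST8 at -0.35, EIF4EBP1 at -0.25 and RPS6KB1 at -0.12. EIF4EBP2 (-0.06), AKT1S1 (-0.04) and RICTOR (0.04) differed less, and the first 2 turned to 0.03 and 0.05 with TPM. None of the 9 reached 1.5-fold. Over all genes 2.13% reached 1.5-fold on the higher side and 3.13% on the lower side in K177Q polysomes, and the median was -0.06 for the members and -0.02 for all genes. DEPTOR, outside the filter, was 1.52-fold lower in K177Q polysomes, a log2 ratio of -0.60 with a counting SE of 0.30.

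In the sub-polysome libraries the members lay closer together. The lowest log2 K177Q to WT ratios were those of MTOR (-0.21), RICTOR (-0.13), RPS6KB1 (-0.12) and RPTOR (-0.10), and the highest those of AKT1S1 (0.16) and MLST8 (0.07). The remaining 3, EIF4EBP1, RPS6KB2 and EIF4EBP2, were within 0.03 of 0. None reached 1.5-fold, where 4.01% of all genes were higher and 2.94% lower. Rescaled to TPM, all genes shifted by -0.20 in this comparison, and MLST8 moved to -0.14 and AKT1S1 to -0.05, so their direction in this fraction depends on the scaling.

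**Figure D3:**
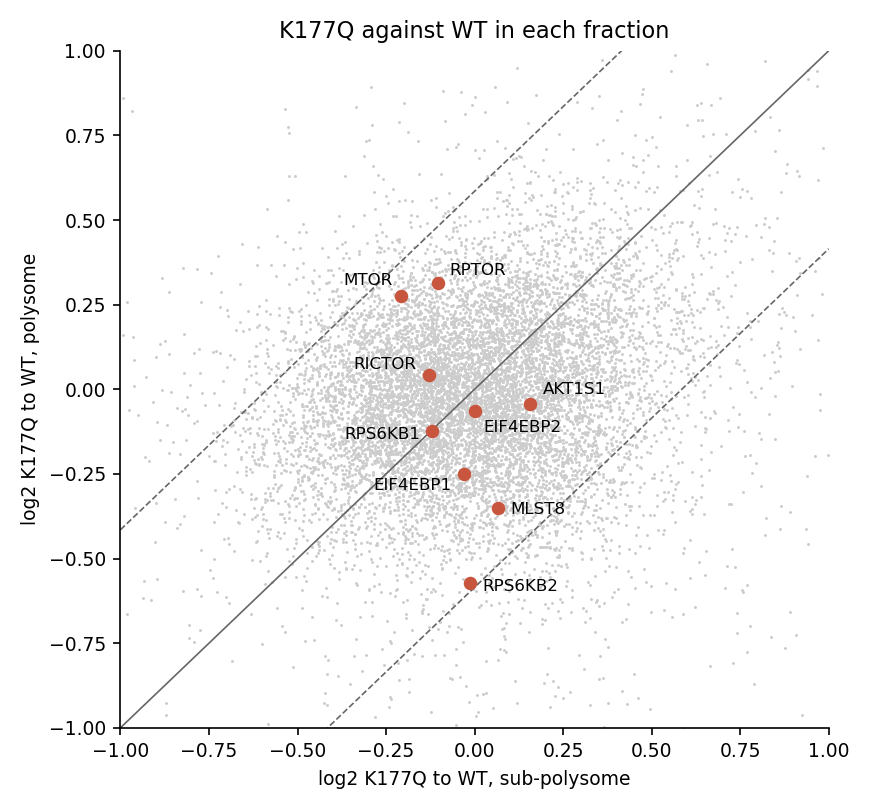
log2 K177Q to WT ratio in the polysome fraction (vertical) against that in the sub-polysome fraction (horizontal) for the 9 members (labelled) and the other genes tested (grey), with the solid line where both are equal and dashed lines at a 1.5-fold translation efficiency ratio (273 genes lie outside the axes). MTOR and RPTOR lie above the solid line, and RPS6KB2 and MLST8 below it, all within the dashed lines.

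Taking both fractions together, the translation efficiency ratio compares how an mRNA is divided between fractions in the 2 lines. MTOR had the highest ratio of the members, 1.40-fold (log2 0.48, counting SE 0.13), with RPTOR next at 1.33-fold (0.42, counting SE 0.073), above 92.9% and 89.8% of genes. RICTOR had 0.17 (counting SE 0.12). At the other end, RPS6KB2 was 1.47-fold lower in K177Q cells (-0.56, counting SE 0.077), with 7.7% of genes below it, and MLST8 was 1.33-fold lower (-0.42, counting SE 0.061), with 13.5% below it. EIF4EBP1 (-0.22) and AKT1S1 (-0.20) were lower by 1.16-fold and 1.15-fold, and EIF4EBP2 (-0.07) and RPS6KB1 (-0.0044) differed by less than their counting error. None of the 9 reached 1.5-fold in either direction. Among all genes 4.08% were past it on the higher side and 7.03% on the lower side, with a SD of 0.455 around a median of -0.01. The members' median was -0.07, with 3 above 0 and 6 below, where 48.9% of all genes were above 0.

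Within mTORC1 the mRNAs for the kinase and its scaffold differed in direction from the mRNAs for MLST8 and PRAS40, and within the S6 kinase pair RPS6KB2 stood at -0.56 and RPS6KB1 at -0.0044. The signs in the middle of the list depend on the scaling. Bringing each library to the same total of FPKM raised the median of all genes by 0.30, and doing so without ribosomal protein genes raised it by 0.24. Under these 2 scalings AKT1S1 (0.10 and 0.04), EIF4EBP1 (0.08 and 0.02), EIF4EBP2 (0.23 and 0.17) and RPS6KB1 (0.29 and 0.22) came out above 0. MTOR passed 1.5-fold (1.71-fold and 1.63-fold), as did RPTOR (1.64-fold and 1.57-fold), while RPS6KB2 (-0.26 and -0.32) and MLST8 (-0.12 and -0.18) remained below 0.

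The members differ greatly in coding length, and over all genes the fraction ratios went with that length. The 602 genes with more than 4000 coding bases had a median translation efficiency ratio of 0.25 on the log2 scale, and the 999 genes with at most 500 had -0.30. Spearman's rho between coding length and the translation efficiency ratio was 0.46 over 10305 genes and 0.70 over the 9 members, which share the 4 libraries and are given as a description. Set against genes of like length, MTOR and RPTOR were above their class median by 0.23 and 0.16, and 81.4% and 73.4% of that class lay below them. EIF4EBP1 and EIF4EBP2, negative before, were above the median of the shortest class by 0.08 and 0.24. MLST8 was 0.27 below its class (17.7% of it lower), and AKT1S1 0.06 below.

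In the polysome to sub-polysome ratio RPS6KB2 and RICTOR stood apart from genes of like length. The translation efficiency ratio of RICTOR was only 0.08 below its class median, with 36.9% of that class lower. RPS6KB2 was 0.53 below the median translation efficiency ratio of genes with 1001 to 1500 coding bases, with 4.66% of that class lower, and its polysome to sub-polysome ratio was 1.40 below the class median in WT cells and 1.95 below it in K177Q cells, where 1.16% of the class was lower. RPS6KB1, of nearly the same coding length, was 0.43 and 0.56 below its own class. RICTOR was 1.11 below the median of genes with more than 4000 coding bases in WT cells and 1.21 below in K177Q cells, with 5.32% and 4.82% of the class lower, whereas MTOR and RPTOR, in the same class, were above its median in both lines.

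The rest of the pathway was taken from 8 lists of 74 genes, of which 67 passed the filter. In the translation efficiency ratio 3 of the 67 (4.48%) were past 1.5-fold on the higher side in K177Q cells and 4 (5.97%) on the lower side, shares near the 4.08% and 7.03% of all genes. The median log2 ratio was -0.01, with 31 of 67 above 0. In the polysome to sub-polysome ratio of WT cells 23 (34.3%) were past 1.5-fold on the polysome side and 11 (16.4%) on the other, and in K177Q cells 20 (29.9%) and 9 (13.4%). The shares of all genes were 28.1% and 19.1% in WT cells and 30.2% and 21.3% in K177Q cells.

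Upstream of mTORC1, 2 subunits of Ragulator, the complex that anchors the Rag GTPases to the lysosome, were past 1.5-fold on the lower side. LAMTOR4 had 220.6 FPKM in WT sub-polysome, 93.6 in WT polysome, 255.4 in K177Q sub-polysome and 64.2 in K177Q polysome, a translation efficiency ratio 1.69-fold lower in K177Q cells, and LAMTOR1 had 250.5, 84.1, 292.4 and 64.8, 1.51-fold lower. These were the 2 of 12 tested genes of the Rag, Ragulator and folliculin list past 1.5-fold, and the list's median log2 ratio was -0.18. All 5 LAMTOR mRNAs have at most 500 coding bases, a class with a median of -0.30 and 19% of genes past 1.5-fold lower. LAMTOR4 (-0.75) and LAMTOR1 (-0.60) were below that median, and the other 3, named after their values were seen, were above it: LAMTOR5 at -0.26, LAMTOR2 at -0.25 and LAMTOR3 at -0.11. CASTOR2, whose paralog CASTOR1 is an arginine sensor, was 1.58-fold lower (1.17, 1.98, 1.18 and 1.24 FPKM), the only 1 of 5 tested amino acid sensors past 1.5-fold. In the TSC complex and RHEB, which restrain and activate mTORC1, respectively, the 4 genes lay between -0.19 (TBC1D7) and 0.35 (TSC2), and in GATOR1, GATOR2 and KICSTOR, which pass on amino acid signals, the 9 tested lay between -0.54 (ITFG2) and 0.14 (WDR24). None of those 13 reached 1.5-fold.

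Among the mTORC2-specific subunits and the factors that assemble mTOR, TELO2, a chaperone partner for kinases of the mTOR family, was 1.62-fold higher in translation efficiency ratio. Its levels were 6.02 FPKM in WT sub-polysome, 15.9 in WT polysome, 3.43 in K177Q sub-polysome and 14.8 in K177Q polysome, so the difference lay in the sub-polysome libraries. TELO2 has 2514 coding bases, and genes with 2501 to 4000 had a median of 0.20, with 6.83% past 1.5-fold higher. The other 6 tested genes of this list lay between -0.20 and 0.17. In the PI3K-AKT input none of the 9 tested genes was past 1.5-fold, the lowest was AKT1 (-0.30), and the list's median was 0.18.

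Downstream, EEF2K, the kinase that inhibits elongation factor eEF2, was 1.52-fold higher in translation efficiency ratio and LARP1, which binds mRNAs with terminal pyrimidine runs, 1.51-fold higher. RPS6, the substrate for which the S6 kinases are named, was 1.57-fold lower, with 808.7 FPKM in WT sub-polysome, 527.0 in WT polysome, 946.4 in K177Q sub-polysome and 393.9 in K177Q polysome. These were 3 of 13 in the list of targets and cap-binding partners, whose median was 0.10. LARP1 has 3291 coding bases, in a class with a median of 0.20 and 6.83% of genes past 1.5-fold higher. EEF2K has 2178, in a class with 0.09 and 4.37%, and had low levels (1.34, 1.18, 1.25 and 1.73 FPKM in the order given for RPS6). RPS6 is itself a ribosomal protein gene. Such genes together took 17.6% of FPKM in the WT polysome library and 14.3% in the K177Q one. In the sub-polysome libraries they took 26.1% in WT and 26.4% in K177Q cells. Whether RPS6 differs from that class was not tested. EIF4E, the cap-binding protein that the 4E-BPs hold, had 4.66, 6.17, 4.03 and 5.64 FPKM and a log2 ratio of 0.08. EIF4E was on the polysome side in both lines, while EIF4EBP1 and EIF4EBP2 were on the sub-polysome side. EIF4EBP3, for a further 4E-BP that is on this list, had 12.9, 10.02, 10.9 and 7.30 FPKM, above EIF4EBP2 in every library, and log2 polysome to sub-polysome ratios of -0.36 in WT and -0.58 in K177Q cells. The 8 other mTOR substrates lay between -0.46 (MAF1) and 0.48 (LPIN1).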

How the data were processed

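Polysome and sub-polysome RNA of WT and K177Q cells was poly(A)-selected and sequenced. The authors deposited 1 table of FPKM per gene; the submitters' processing notes name STAR 2.7, StringTie 2.1.5 and hg38, while the annotation and the strand setting are not given in the sources used here. Columns were matched to samples by name. A further 4 value columns, named for replicate 1, matched no listed sample and were not used. All 4 libraries used are labelled replicate 2, so each condition has 1 library here and no test was run.

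Ratios were taken as log2(FPKM + 0.1), which understates differences of low genes, for genes averaging 1 FPKM or more across the libraries; counts of higher and lower genes use a 1.5-fold difference. Approximate fragment numbers came from the lowest cluster of FPKM times transcript length (window 0.03 to 0.045, chosen after seeing the values); counting SEs derived from them cover counting error only. Positions and coding lengths are those of GENCODE 44, matched by symbol, and coding length was found for 94.5% of genes tested. Start windows come from a RefSeq promoter table, which held the 6 members printed; MLST8 and AKT1S1 were not matched.

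The members and lists were chosen with earlier results of these data known. Named besides the members were METTL3, EIF4E, RPS6 and, from each list, genes past 1.5-fold in the translation efficiency ratio (up to 4) or otherwise its highest and lowest. Some genes that this rule or the overlap search would name are not reported here. Alternatives were no pseudocount or a pseudocount of 1, no filter or a minimum mean of 5 FPKM, and a 2-fold threshold. Others were TPM, equal totals without ribosomal protein genes, size factors, centred ratios, and removal of a lowess length trend (span 0.3). The calculation was tested on simulated data. Python 3.11.15 was used with statsmodels 0.14.6, scipy 1.17.1, pandas 2.3.3, matplotlib 3.10.9 and numpy 2.4.6.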

Additional observations from a re-analysis of the deposited data

Results flagged for a closer look

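For 6 members the K177Q to WT ratio had opposite signs in the polysome and the sub-polysome fraction. The share of all genes with opposite signs was not counted. Of all genes tested, 46.2% were above 0 in polysome and 49.4% in sub-polysome. Each pair of signs rests on 1 library per condition, and the difference between fractions was not tested. It was 0.48 on the log2 scale for MTOR (0.28 in polysome, -0.21 in sub-polysome), 0.42 for RPTOR (0.31 and -0.10) and 0.17 for RICTOR (0.04 and -0.13). In the other direction it was -0.42 for MLST8 (-0.35 and 0.07), -0.20 for AKT1S1 (-0.04 and 0.16) and -0.066 for EIF4EBP2 (-0.065 and 0.00066). With TPM the sub-polysome sign of MLST8, AKT1S1 and EIF4EBP2 and the polysome sign of AKT1S1 and EIF4EBP2 turn, and with totals equalised after leaving out ribosomal protein genes the same 3 sub-polysome signs turn. With the length trend removed the sub-polysome sign of RPTOR turns (0.05, with 0.24 in polysome), as does the polysome sign of AKT1S1 (0.02, with 0.09 in sub-polysome), so neither has opposite signs there, while RICTOR (-0.04 in polysome, 0.04 in sub-polysome) and EIF4EBP2 (0.11 and -0.12) turn in both fractions. The sign of the difference turns for AKT1S1 and EIF4EBP2 with TPM and with the equalised totals, and for RICTOR and EIF4EBP2 with the length trend removed.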

How the results depend on the processing

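No paired analysis was possible because each condition has 1 library among those used. For the same reason no replicate could be left out and no spread between replicates was measured. The use of 1 library per line and fraction, the authors' FPKM without counts and an unstated strand setting limit all values. DEPTOR rests on about 19 to 62 fragments per library. In the translation efficiency ratio, the number of members at least 1.5-fold higher went from 0 to 2 (MTOR and RPTOR) with TPM and with equal totals that leave out ribosomal protein genes, and the members' median went from -0.07 to 0.23 and 0.17 under these, and to -0.21 with a minimum mean of 5 FPKM. The median of the polysome to sub-polysome ratio in WT cells (-0.68) became -0.54 with a pseudocount of 1, -0.84 with the minimum of 5 FPKM, -0.56 with TPM and -0.83 with centred ratios. In K177Q cells (-0.97) it became -0.74 with no filter, -0.53 with TPM, -0.75 with equal totals, -1.08 with size factors, -1.13 with centred ratios and -0.53 with the length trend removed. The sub-polysome K177Q to WT median (-0.03) became -0.24 with TPM and -0.23 with equal totals; the polysome median moved by less than 0.1 under every alternative. Of 79 values of single members in the translation efficiency ratio, 25 moved by 0.1 or more (21 up, 4 down) and 12 changed sign. The 79 include 10 values with no filter and 6 with the minimum of 5 FPKM. These could not move, since a filter leaves the ratio of a single gene unchanged. AKT1S1, EIF4EBP1, EIF4EBP2 and RPS6KB1 changed sign with TPM and with equal totals. RICTOR, EIF4EBP1 and EIF4EBP2 did so with the length trend removed, and RPS6KB1 with centred ratios.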
